A study of Mus musculus with 17 samples.

Results

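Plasmacytoid dendritic cells from mouse bone marrow were compared after CpG-A and after CpG-B, with LIF given to both groups. The comparison used 6 of the study's 17 single-channel Affymetrix arrays of total RNA, 3 of CpG-A + LIF and 3 of CpG-B + LIF, taken by their labelled treatment. The mice were C57BL/6. Cells were enriched by removing other cells with magnetic beads and then sorted as cells with intermediate CD11c, B220 and Siglec-H. Both groups received LIF at 10 ng/ml, 1 h before the CpG and for 20 to 24 h in all. The CpG-A + LIF group then received CpG-A (oligonucleotide 2216) at 6 µg/ml for 19 to 23 h, and the CpG-B + LIF group received CpG-B (oligonucleotide 1826) at the same dose and for the same time. The remaining 11 arrays held CpG-A alone (3), CpG-B alone (3), LIF alone (3) and medium (2). Whether the replicates came from separate mice or cultures is not stated, so p-values measure the spread between these arrays, which may be technical.

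CpG oligonucleotides are sensed in endosomes by TLR9, which signals through MYD88 to IRF7 and to NF-kB. CpG-A oligonucleotides assemble into larger structures through their guanine-rich ends, are held in early endosomes and are known for inducing type I interferon in plasmacytoid dendritic cells. CpG-B oligonucleotides have a modified backbone throughout, stay single and are known for driving maturation and B cell activation. LIF is a cytokine of the IL-6 family that binds LIFR and gp130 (Il6st) and signals through JAK kinases and STAT3, which induces the feedback inhibitor SOCS3.

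The deposited intensities have lost their decimal mark, which leaves each log2 value open by any multiple of 3.32, the log2 of 10. A difference is given as its nearest reading, the one within 1.66 of 0, as CpG-A + LIF minus CpG-B + LIF ± SE with 3 arrays in each group. A called reading of at most 1.11 (2.15-fold) was read as higher or lower, because the alternative is a change of at least 4.64-fold the other way. That alternative was not tested for single genes, and a gene with so strong a change would be read in the wrong direction. For a larger called reading the direction was open and both readings are given. As a check, the nearest readings of both groups against LIF alone were subtracted from each other. For 127 of the genes read as higher or lower this gave the second reading and not the first, so that their direction is doubtful, and those named below are marked as such. Array values are log2 readings relative to the mean of the CpG-B + LIF arrays. Levels cannot be recovered from such values, so no gene's level is compared with another's, and whether the markers of the sorted cell type were present could not be checked.

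Across 19751 genes, 3339 (16.9%) were called at an adjusted p under 0.05 in limma. Of these, 1112 (5.63% of all genes) read higher with CpG-A + LIF, 1581 (8%) read lower and 646 (3.27%) were called with an open direction. A further view of the background is the share of genes whose arrays did not overlap, 17.7% with the CpG-A + LIF arrays all above and 15.9% with them all below. The median reading of all genes was 0.05, and 58.2% of all readings lay above 0 (11500 above and 8251 below). Without CpG-B + LIF replicate 1, 709 genes read higher. Among the 17314 genes whose 17 arrays could all be placed within 3.16-fold, 1947 were called, 706 of them higher and 1184 lower, and list counts there were smaller because fewer members entered (8 interferon-stimulated genes and 6 plasmacytoid identity genes called). The median standard deviation within groups was 0.19, and the arrays' root mean square deviations from their group means ran from 0.146 to 0.213. The low end is the medium group, whose 2 arrays deviate equally by construction. In the compared groups CpG-A + LIF replicate 2 had the largest value, 0.192, and the other arrays had 0.167 to 0.180.

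**Figure D1:**
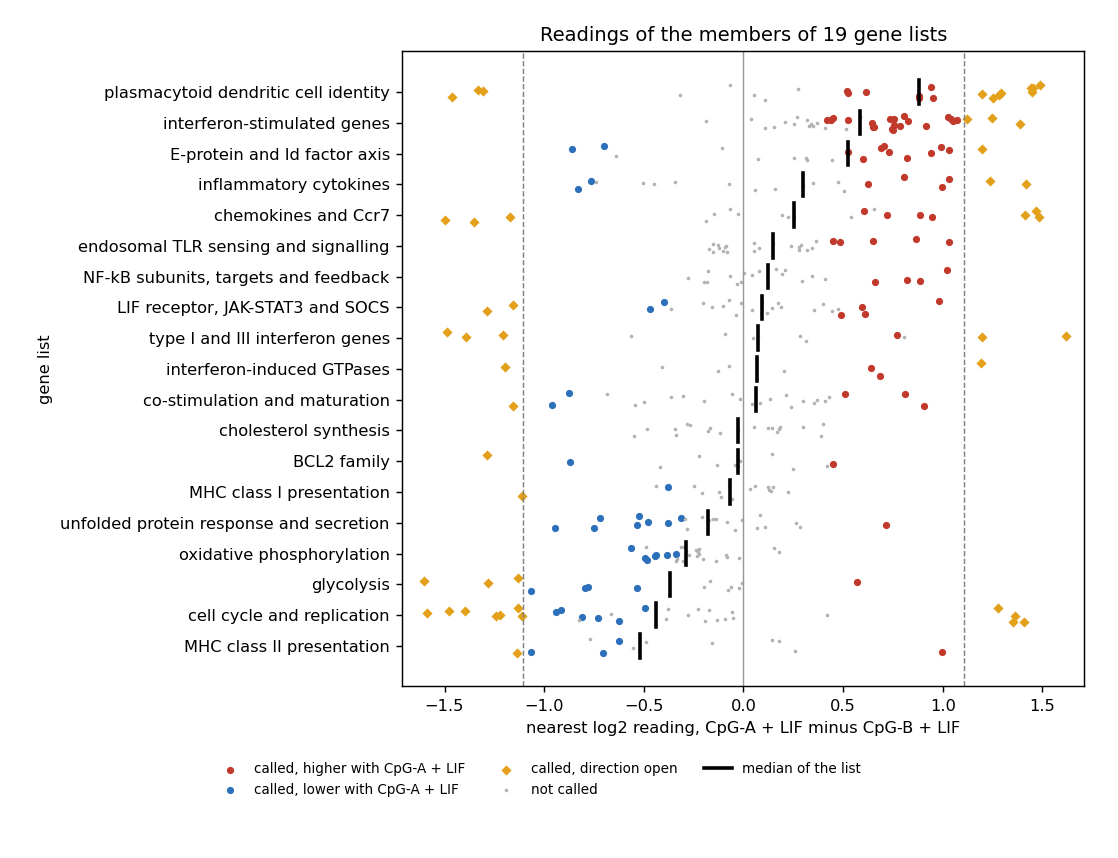
Nearest log2 reading (CpG-A + LIF minus CpG-B + LIF) of every measured member of 19 gene lists, 1 point a gene, with a black bar at each list's median and dashed lines at the limit on direction. Interferon-stimulated genes have 38 of 39 readings above 0, and oxidative phosphorylation genes 25 of 27 below 0. Of all genes, 58.2% read above 0.

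Interferon-stimulated genes, the antiviral programme that type I interferon switches on, read higher with CpG-A + LIF. Of 39 measured members 23 were called (59.0%, beside 16.9% of all genes), with 20 higher, 0 lower and 3 open in direction. Their median reading was 0.59 (0.51 with the open members at their second reading), against 0.05 for all genes. By the nearest readings 31 members had all CpG-A + LIF arrays above all CpG-B + LIF arrays, beside 17.7% of all genes. Of these members 3 were open in direction. Without CpG-A + LIF replicate 1, 15 members were called. The direction was doubtful for 2 of the 20, Cmpk2 and Parp14. RNA pooled over many cells cannot tell fewer cells of a type from less RNA per cell, here or below.

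Stat2, a transcription factor activated by interferon receptors, read 1.08, 0.72 and 0.95 in the CpG-A + LIF arrays, against 0.03, 0.09 and -0.13 in the CpG-B + LIF arrays. The groups did not overlap, and the difference was 0.92 ± 0.13 (adjusted p = 5.61e-05). Mx1, a GTPase gene of the list, read 1.23, 0.68 and 1.18 in the CpG-A + LIF arrays and 0.01, -0.06 and 0.05 in the CpG-B + LIF arrays. Its difference was 1.03 ± 0.14 (adjusted p = 5.66e-05), and CpG-A + LIF replicate 2 was the lowest of its group. For Oasl2, a member of the oligoadenylate synthetase family, the CpG-A + LIF arrays read 1.07, 0.93 and 1.15 and the CpG-B + LIF arrays 0.10, -0.02 and -0.08. The difference was 1.05 ± 0.16 (adjusted p = 0.00018). Mx2, a relative of Mx1, was called at 1.25 ± 0.19 (or -2.08), with an open direction. Irf7, the regulator that amplifies interferon gene expression, read 0.80, 0.53 and 0.62 with CpG-A + LIF, against 0.02, 0.05 and -0.07 with CpG-B + LIF. Its reading of 0.65 ± 0.19 (adjusted p = 0.0237) had the same sign but was not called when any array other than CpG-A + LIF replicate 2 was left out (0.58 to 0.67, adjusted p 0.0507 to 0.0929).

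The promoters of 3 of these genes are shown because each holds a motif of the kind bound by the factors that interferon receptors activate and each gene read higher. Ifit1, which binds viral RNA, read 0.75 ± 0.16 (adjusted p = 0.00241) and Trim30a, an interferon-induced ubiquitin ligase, 0.52 ± 0.11 (adjusted p = 0.0023); the 3 are the genes with the smallest adjusted p among higher members with a listed promoter that holds the motif. The sequences are RefSeq's on GRCm38.p6 and run in the direction of the gene, from 250 bases before its start to 50 after it. Capitals mark the motif, GAAA, any 2 bases and GAAA again, which was searched on both strands and here lies on the opposite one, as TTTC, any 2 bases and TTTC. In Stat2 (chr10:128270248-128270547, plus strand) it starts 222 bases before the gene's start. In Trim30a (chr7:104465144-104465443, minus strand, 1 of its 2 listed promoters) it starts 36 bases before, and in Ifit1 (chr19:34640639-34640938, plus strand) 2 copies start 104 and 85 bases before.
Stat2: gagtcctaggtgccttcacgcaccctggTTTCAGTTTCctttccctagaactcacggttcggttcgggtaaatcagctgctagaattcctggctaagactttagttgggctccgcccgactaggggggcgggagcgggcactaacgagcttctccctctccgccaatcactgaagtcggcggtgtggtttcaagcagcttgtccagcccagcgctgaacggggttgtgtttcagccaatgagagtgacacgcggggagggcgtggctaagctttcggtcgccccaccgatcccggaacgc
Trim30a: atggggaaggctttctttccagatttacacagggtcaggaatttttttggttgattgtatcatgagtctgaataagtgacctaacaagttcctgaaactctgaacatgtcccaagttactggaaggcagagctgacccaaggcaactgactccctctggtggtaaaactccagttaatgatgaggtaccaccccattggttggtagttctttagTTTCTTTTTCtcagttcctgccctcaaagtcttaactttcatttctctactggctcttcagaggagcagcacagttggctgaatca
Ifit1: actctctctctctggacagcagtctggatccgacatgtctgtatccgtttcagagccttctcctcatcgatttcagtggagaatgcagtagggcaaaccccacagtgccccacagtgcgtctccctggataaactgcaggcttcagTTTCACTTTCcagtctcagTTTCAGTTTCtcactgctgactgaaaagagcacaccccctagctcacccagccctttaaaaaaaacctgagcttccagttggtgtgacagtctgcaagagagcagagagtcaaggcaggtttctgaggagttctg

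The motif was in a listed promoter of 14 of 31 interferon-stimulated genes (45.2%), against 3.88% of 15482 measured genes with a listed promoter. Counted by promoter, it was in 3.44% of all 32851. Members that read higher held it in 6 of 16 cases and members that were not called in 6 of 13. Counted by gene, it was in 6.70% of all genes that read higher with CpG-A + LIF, 3.31% of those lower and 3.70% of those not called. A match is a description of these letters in this window, not of binding.

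**Figure D2:**
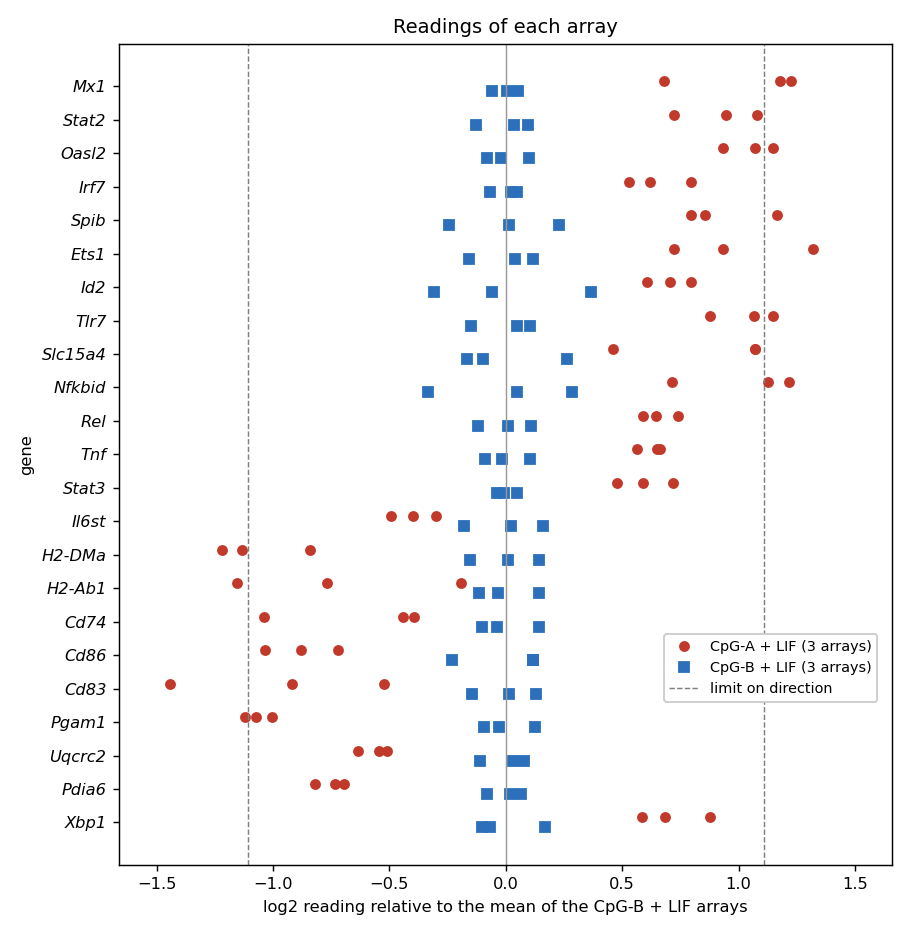
Log2 reading of each array relative to the mean of the CpG-B + LIF arrays, for genes described in the text, with dashed lines at the limit on direction. The CpG-A + LIF arrays (circles) and the CpG-B + LIF arrays (squares) do not overlap for Stat2, Tlr7 or Xbp1, and the CpG-A + LIF arrays lie far apart for H2-Ab1 and Cd83.

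The interferon genes themselves gave few readable directions. Among 13 measured genes of types I and III, 6 were called (46.2%, beside 16.9% of all genes), 1 higher and 5 open. Without CpG-A + LIF replicate 3, 3 were called. Ifnb1, the early type I interferon, read 0.34, -0.76 and 0.15 in the CpG-A + LIF arrays, against 0.24, -0.06 and -0.18 in the CpG-B + LIF arrays. The groups overlapped, and its reading of -0.09 ± 0.23 was not called (adjusted p = 0.847). A reading near 0 leaves a change near 10-fold possible as well. Ifna4 was called at 1.62 ± 0.32 (or -1.70), and without CpG-A + LIF replicate 3 it was not (-0.16, adjusted p = 0.815). Ifnab read 1.20 ± 0.23 (or -2.12), Ifna5 -1.49 ± 0.33 (or 1.83) and Ifna9 -1.20 ± 0.29 (or 2.12). CpG-A + LIF replicate 2 read -2.08 for Ifna5 and -1.89 for Ifna9, the lowest array of each. Ifnl2, a type III interferon, read 0.31 ± 0.22 and Ifna2 0.80 ± 0.33, both not called (adjusted p = 0.389 and 0.109). Ifna2 read -0.03 in CpG-A + LIF replicate 2, and without that array it was called at 1.22 (adjusted p = 0.00966), past the limit on direction. Probe sets of the Ifna family may pick up one another's transcripts, since its genes are almost alike in sequence. Among the interferon-induced GTPases, which attack vacuoles that hold pathogens, 4 of 8 were called (50%, beside 16.9% of all genes). Gbp4 read 0.69 ± 0.13 and Irgm1 0.64 ± 0.13, both higher with CpG-A + LIF (adjusted p = 0.000992 and 0.00191). The direction of Irgm1 is doubtful, since its readings against LIF alone gave the second reading (-2.68). Gbp8 (1.19 ± 0.20, or -2.13) and Iigp1 (-1.20 ± 0.22, or 2.12) were open.

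Genes that define plasmacytoid dendritic cells had the highest share called of the 19 lists, 18 of 23 measured members (78.3%). Of these, 7 read higher, 0 lower and 11 were open, beside 16.9% of all genes called in any direction. By the check against LIF alone the direction of 1 higher member, Upb1, is doubtful. The median of the nearest readings was 0.88, and it was 0.11 with the open members at their second reading. By the nearest readings 16 members had all CpG-A + LIF arrays above all CpG-B + LIF arrays, beside 17.7% of all genes. Of these members 8 were open in direction. Spib, an ETS-family factor this cell type needs, read 1.17, 0.79 and 0.86 with CpG-A + LIF, against 0.01, -0.24 and 0.23 with CpG-B + LIF. The groups stood apart by 0.94 ± 0.15 (adjusted p = 0.000184). Irf8, a factor of dendritic cell development, read 0.52 ± 0.13 higher (adjusted p = 0.00833). Tcf4, the E protein that specifies these cells, read 1.26, 1.04 and 1.29 in the CpG-A + LIF arrays and -0.08, 0.05 and 0.03 in the CpG-B + LIF arrays. At 1.20 ± 0.11 (or -2.13) its direction was open, although the difference was called (adjusted p = 2.66e-06). The same held for the myeloid and lymphoid gene Plac8 at 1.25 ± 0.11 (or -2.07) and for Lag3, a checkpoint receptor that binds MHC class II, at 1.45 ± 0.13 (or -1.87).

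Siglech, the surface receptor used in the sort, read -1.40, -1.55 and -1.43 with CpG-A + LIF, against -0.19, 0.29 and -0.10 with CpG-B + LIF. The arrays did not overlap, but -1.46 ± 0.13 (or 1.86) has no settled direction. Without LIF the nearest reading of the same gene, CpG-A minus CpG-B, was 1.34 ± 0.13, past the limit, so its direction was open as well. Whether the direction differed with LIF can therefore not be read from these values. The nearest readings of Siglech against LIF alone, -0.74 for CpG-A + LIF and 0.72 for CpG-B + LIF, add up to the first of the 2 readings with LIF.

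The E proteins switch on the plasmacytoid programme, and Id proteins block them. Of 19 measured genes of that axis 12 were called (63.2%, beside 16.9% of all genes). The median was 0.52 (0.44 with the open member at its second reading), with 9 reading higher, 2 lower and 1 open. Ets1, an ETS factor of lymphoid cells, read 0.93, 1.32 and 0.72 with CpG-A + LIF, against -0.16, 0.12 and 0.04 with CpG-B + LIF. It stood at 0.99 ± 0.18 (adjusted p = 0.000657), with no overlap. Ikzf2, an Ikaros-family factor, read 1.03 ± 0.16 higher (adjusted p = 0.000178). Id2, which binds E proteins and blocks them, read 0.71, 0.61 and 0.79 in the CpG-A + LIF arrays, against -0.06, -0.31 and 0.37 in the CpG-B + LIF arrays. It read higher too, by 0.70 ± 0.16 (adjusted p = 0.00542). The members that read lower were the E protein Tcf3 at -0.70 ± 0.15 (adjusted p = 0.0023) and Nfil3, a factor of conventional dendritic cells, at -0.86 ± 0.22 (adjusted p = 0.009). Nfil3 was not called without CpG-A + LIF replicate 1 (-0.70, adjusted p = 0.0577). The directions of Ets1 and Ikzf2 are doubtful, since readings against LIF alone gave -2.33 and -2.29, and the same held for Bcl11a, also read as higher. Tcf3 and Nfil3 were singled out after their values were seen.

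In endosomal TLR signalling, 5 of 25 members (20%) were called, beside 16.9% of all genes, with 5 higher and 0 lower. Leaving out any array other than CpG-A + LIF replicate 2 left 2 or 3 called. Tlr7, the endosomal receptor for single-stranded RNA, read 1.07, 0.88 and 1.15 with CpG-A + LIF, against 0.10, -0.15 and 0.05 with CpG-B + LIF. Its arrays did not overlap, and the difference was 1.03 ± 0.14 (adjusted p = 5.87e-05). Slc15a4, a lysosomal transporter that TLR7 and TLR9 responses need in these cells, read 0.87 ± 0.16 (adjusted p = 0.000765). Tlr9, the receptor of both oligonucleotides, read 0.45, 0.25 and 0.26 in the CpG-A + LIF arrays and 0.09, -0.08 and -0.01 in the CpG-B + LIF arrays. The arrays stood apart, but 0.32 ± 0.11 was not called (adjusted p = 0.0611). The adaptor Myd88 read 0.45 ± 0.14 higher (adjusted p = 0.0371). Without CpG-A + LIF replicate 3 it read 0.28 (adjusted p = 0.213), and it was also not called without any one CpG-B + LIF array (0.43 to 0.47, adjusted p 0.0761 to 0.0968).

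Of 20 NF-kB members 4 (20%) were called, beside 16.9% of all genes, and all 4 read higher with CpG-A + LIF. Nfkbid, a nuclear regulator of NF-kB, read 1.22, 1.13 and 0.72 with CpG-A + LIF, against 0.29, 0.05 and -0.33 with CpG-B + LIF. The groups did not overlap, at 1.02 ± 0.16 (adjusted p = 0.000152). The subunit Rel read 0.66 ± 0.13 (adjusted p = 0.00149), the inhibitor Nfkbie 0.89 ± 0.15 (adjusted p = 0.000374) and the early response gene Ier3 0.82 ± 0.20 (adjusted p = 0.00738). Readings against LIF alone gave the second reading for Nfkbie (-2.44) and Ier3 (-2.50), whose directions are doubtful.

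Among 19 inflammatory cytokine genes 8 were called (42.1%, beside 16.9% of all genes), 4 higher, 2 lower and 2 open. Without either CpG-A + LIF replicate 1 or CpG-B + LIF replicate 2, 4 were called, and 5 without CpG-A + LIF replicate 3. Tnf read 0.66, 0.56 and 0.65 with CpG-A + LIF and 0.10, -0.01 and -0.09 with CpG-B + LIF. At 0.63 ± 0.18 it read higher (adjusted p = 0.0198), but it was not called without CpG-A + LIF replicate 1 or 3 or CpG-B + LIF replicate 2 or 3 (0.58 to 0.62, adjusted p 0.0557 to 0.0659). The direction of Tnf is doubtful, because its readings against LIF alone, -1.38 for CpG-A + LIF and 1.32 for CpG-B + LIF, gave the second reading of -2.70. Tnfsf10, also read as higher, had a doubtful direction by the same check. Il15, which sustains NK cells and memory T cells, read 0.99 ± 0.23 higher (adjusted p = 0.0044). Il6, a sister cytokine of LIF that signals through the same gp130, was open at 1.24 ± 0.26 (or -2.08). Ebi3, a subunit of IL-27, was open at 1.42 ± 0.22 (or -1.90), and Il27, its partner, read lower at -0.77 ± 0.21 (adjusted p = 0.016). Il27 was not called without CpG-B + LIF replicate 1 (-0.58, adjusted p = 0.105) or CpG-A + LIF replicate 2 (-0.61, adjusted p = 0.0836). Il12b (-0.45 ± 0.29) and Il10 (0.47 ± 0.29) were not called (adjusted p = 0.329 and 0.319).

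Chemokines and their receptors gave 10 called of 19 (52.6%, beside 16.9% of all genes), with 4 higher and 6 open. Without CpG-B + LIF replicate 2, 6 were called. Ccl9, which attracts dendritic cells and macrophages, read 0.76, 1.15 and 0.75 with CpG-A + LIF, against -0.16, -0.06 and 0.22 with CpG-B + LIF. It read 0.89 ± 0.17 higher (adjusted p = 0.00145), with no overlap. Cxcl10, an interferon-induced attractant of T cells, read 1.74, 1.10 and 1.39 in the CpG-A + LIF arrays and 0.27, -0.20 and -0.08 in the CpG-B + LIF arrays. It was called at 1.41 ± 0.20 (or -1.91), open in direction. Ccr7, the receptor that guides mature dendritic cells to lymph nodes, was open too, at -1.35 ± 0.18 (or 1.97).

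Co-stimulation and maturation genes read in both directions, with 6 of 24 called (25%, beside 16.9% of all genes). These were 3 higher, 2 lower and 1 open, and 3 were called without CpG-A + LIF replicate 3. Cd86, a ligand of CD28, read -0.72, -0.88 and -1.03 with CpG-A + LIF, against 0.11, -0.23 and 0.12 with CpG-B + LIF. It read lower by the nearest reading, at -0.88 ± 0.21 (adjusted p = 0.00666). Cd83, a maturation marker, read -0.52, -0.92 and -1.44 in the CpG-A + LIF arrays and 0.01, 0.13 and -0.14 in the CpG-B + LIF arrays. Its reading of -0.96 ± 0.25 (adjusted p = 0.0116) was not called without CpG-A + LIF replicate 3 (-0.72, adjusted p = 0.0778). Slamf7, a receptor of the SLAM family, read higher at 0.91 ± 0.15 (adjusted p = 0.000239), a doubtful direction because its readings against LIF alone gave -2.41. The co-stimulators Cd40 (-0.02 ± 0.17) and Cd80 (-0.36 ± 0.25) and the checkpoint ligand Cd274 (-0.20 ± 0.19) were not called (adjusted p = 0.962, 0.373 and 0.54).

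MHC class II genes, which present peptides to CD4 T cells, had 8 of 12 readings below 0 with CpG-A + LIF, beside 8251 of all 19751 genes. Of the 12, 5 were called (41.7%, beside 16.9% of all genes), 3 lower, 1 higher and 1 open. The median was -0.52 (-0.32 with the open member at its second reading). By the nearest readings 7 had all CpG-A + LIF arrays below all CpG-B + LIF arrays, beside 15.9% of all genes. Only 3 were called without CpG-A + LIF replicate 3 or without CpG-B + LIF replicate 2. H2-DMa, which loads peptides onto class II, read -0.84, -1.22 and -1.13 with CpG-A + LIF, against 0.01, 0.14 and -0.15 with CpG-B + LIF. The groups did not overlap, at -1.06 ± 0.15 (adjusted p = 7.25e-05). H2-Ab1, a class II chain, read -0.77, -0.19 and -1.15 in the CpG-A + LIF arrays and -0.03, 0.14 and -0.11 in the CpG-B + LIF arrays. Its -0.70 ± 0.20 (adjusted p = 0.0223) was not called without CpG-A + LIF replicate 1 or 3 or CpG-B + LIF replicate 1 or 2 (-0.72 to -0.48, adjusted p 0.0554 to 0.138). The invariant chain Cd74 read -0.63 ± 0.16 (adjusted p = 0.0115), and was not called without CpG-A + LIF replicate 3 (-0.42, adjusted p = 0.0795) or CpG-B + LIF replicate 2 (-0.55, adjusted p = 0.0559). Ctsl, a lysosomal protease, read the other way at 1.00 ± 0.21 (adjusted p = 0.00265).

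Genes of the LIF receptor and its JAK-STAT3 pathway were compared between groups that both had LIF. Of 25 members 8 were called (32%, beside 16.9% of all genes), with 4 higher, 2 lower and 2 open. Without CpG-A + LIF replicate 1, 5 were called. The receptor gene Lifr read -1.33, -1.34 and -1.20 with CpG-A + LIF, against 0.04, -0.02 and -0.02 with CpG-B + LIF. These arrays stood far apart (adjusted p = 2.08e-06), but -1.29 ± 0.11 (or 2.03) was open. Against LIF alone the nearest readings of Lifr were 0.99 for CpG-A + LIF and -1.04 for CpG-B + LIF, whose difference matches the second reading and not the first. Il6st, the gene of gp130, read -0.30, -0.49 and -0.40 in the CpG-A + LIF arrays and 0.16, 0.02 and -0.18 in the CpG-B + LIF arrays. It read lower at -0.40 ± 0.13 (adjusted p = 0.0422), and was not called when any array other than CpG-B + LIF replicate 3 was left out (-0.45 to -0.32, adjusted p 0.056 to 0.182). Stat3, the main transducer, read 0.59, 0.48 and 0.72 with CpG-A + LIF, against -0.04, -0.01 and 0.05 with CpG-B + LIF. It stood higher by 0.59 ± 0.11 (adjusted p = 0.000657). Il10ra, the receptor of another STAT3-activating cytokine, read 0.98 ± 0.16 higher (adjusted p = 0.000314). The feedback inhibitor Socs3 read 0.68, 0.31 and 0.20 in the CpG-A + LIF arrays and 0.02, -0.06 and 0.04 in the CpG-B + LIF arrays. The arrays did not overlap, but 0.40 ± 0.16 was not called (adjusted p = 0.11).

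Genes of glycolysis, the cell cycle and oxidative phosphorylation mostly had nearest readings below 0. In glycolysis 8 of 14 members were called (57.1%, beside 16.9% of all genes), with 4 lower, 1 higher and 3 open. The median was -0.37 (-0.07 with the open members at their second reading). Pgam1, a mutase of lower glycolysis, read -1.07, -1.00 and -1.12 with CpG-A + LIF, against 0.13, -0.10 and -0.03 with CpG-B + LIF. Its difference was -1.06 ± 0.14 (adjusted p = 5.28e-05). Tpi1 (-1.61 ± 0.18, or 1.72), Ldha (-1.28 ± 0.17, or 2.04) and Hk2 (-1.13 ± 0.19, or 2.19) were open. In oxidative phosphorylation 7 of 27 read lower (25.9%, beside 8% of all genes) and 0 higher. Of the 27 readings 25 were below 0, beside 8251 of all 19751 genes, and the median was -0.29. All arrays were apart for 14 of them, with CpG-A + LIF below, beside 15.9% of all genes. Uqcrc2, a subunit of respiratory complex III, read -0.54, -0.51 and -0.63 with CpG-A + LIF and 0.08, 0.03 and -0.11 with CpG-B + LIF, a difference of -0.56 ± 0.13 (adjusted p = 0.00486). The ATP synthase gene Atp5b read -0.49 ± 0.12 (adjusted p = 0.00884). Leaving out any array other than CpG-B + LIF replicate 3 left 3 or 4 members called.

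Cell cycle and replication genes had a median of -0.44 (-0.25 with the open members at their second reading). Of 30 measured, 17 were called (56.7%, beside 16.9% of all genes), with 6 lower, 0 higher and 11 open. All 6 subunits of the MCM helicase, which unwinds DNA at replication origins, were called with an open direction, at both ends of the scale. Mcm2 read 1.35 ± 0.12 (or -1.97), Mcm3 1.28 ± 0.18 (or -2.05), Mcm4 1.41 ± 0.17 (or -1.91) and Mcm6 1.36 ± 0.16 (or -1.96). Mcm5 read -1.59 ± 0.18 (or 1.73) and Mcm7 -1.22 ± 0.14 (or 2.10). Mcm7 arrays read -0.94, -1.21 and -1.51 with CpG-A + LIF, against -0.05, 0.10 and -0.04 with CpG-B + LIF. A common direction for the 6 genes is possible only with the second reading of some of them. Cdk4, the kinase of the G1 phase, was open at -1.48 ± 0.14 (or 1.84).

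The unfolded protein response, which expands the folding capacity of secretory cells, had 9 of 24 members called (37.5%, beside 16.9% of all genes). Of these, 8 read lower and 1 higher, and the median of the list was -0.18. Without CpG-A + LIF replicate 3 or CpG-B + LIF replicate 2, 5 were called. Pdia6, a disulfide isomerase, read -0.74, -0.82 and -0.70 with CpG-A + LIF and 0.02, 0.06 and -0.08 with CpG-B + LIF. The difference was -0.75 ± 0.12 (adjusted p = 0.000273). Its fellow chaperone genes Sdf2l1 and Hyou1 read -0.95 ± 0.17 and -0.72 ± 0.14 (adjusted p = 0.00057 and 0.00112). Readings against LIF alone gave the second reading for 4 of the 8 lower members, Sdf2l1 (2.38), Hyou1 (2.60), Creld2 and Pdia4, whose directions are doubtful. Xbp1, the transcription factor of this response, read 0.68, 0.88 and 0.59 in the CpG-A + LIF arrays, against -0.07, 0.17 and -0.10 in the CpG-B + LIF arrays. It was the 1 member that read higher, at 0.72 ± 0.15 (adjusted p = 0.00274).

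Beyond the lists, genes that share a symbol stem were counted for all 179 stems with at least 12 measured genes, and the stems named here were picked for their counts, so they carry no test. The 7 stems with the highest shares of lower genes were Nup, Eif, Mrps, Mrpl, Rpl, Rad and Polr, set beside 8% of all genes. Nup genes, the nucleoporins of the nuclear pore, read lower in 11 of 20 cases, higher in 0 and open in 4, with a median of -0.73. Nup62 read -0.96, -1.21 and -1.15 with CpG-A + LIF, against 0.13, -0.13 and 0.00 with CpG-B + LIF, a difference of -1.10 ± 0.15 (adjusted p = 4.48e-05). Eif genes, the translation initiation factors, read lower in 25 of 49 cases and higher in 1. Eif4e, singled out with Anxa2 below after its values were seen and known to bind the mRNA cap, read -0.86 ± 0.12 (adjusted p = 6.73e-05). Mitochondrial ribosome genes read lower in 14 of 29 (Mrps) and 22 of 48 (Mrpl) cases and higher in 0 of both. Rpl genes of the cytosolic large subunit read lower in 16 of 36 cases, higher in 1 and open in 4, Rad genes, many of them of DNA repair, lower in 7 of 17, and Polr genes of the RNA polymerases lower in 11 of 27 and open in 3. Without LIF, genes read lower in 10 cases for Nup, 17 for Eif, 11 for Mrps, 17 for Mrpl and 16 for Rpl. Rad had 3 such genes and Polr 5, and the share of all genes that read lower without LIF was 6.14%.

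Genes of ribosomal RNA production were not among the lists, and 4 of them are given as values only. Polr1a, the large subunit of RNA polymerase I, read -1.58 ± 0.14 (or 1.74), with arrays at -1.61, -1.38 and -1.75 with CpG-A + LIF and 0.06, -0.05 and -0.02 with CpG-B + LIF. Nop58, Gar1 and Fbl, which guide and carry out chemical modification of ribosomal RNA, read -1.49 ± 0.14 (or 1.84), -1.34 ± 0.11 (or 1.98) and -1.52 ± 0.14 (or 1.80). The 4 genes were singled out after their values were seen, and all were open in direction. The stems with the highest shares of higher genes were Lrp (4 of 13, and 1 lower), Anxa (3 of 12, and 1 lower), Ifi (3 of 14, and 4 open) and Clec (7 of 33, and 5 open), set beside 5.63% of all genes. Anxa2, an annexin of membrane repair and traffic, read 1.02, 1.11 and 1.08 with CpG-A + LIF, against -0.29, 0.07 and 0.22 with CpG-B + LIF. It read higher by 1.07 ± 0.15 (adjusted p = 5.40e-05).

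**Figure D3:**
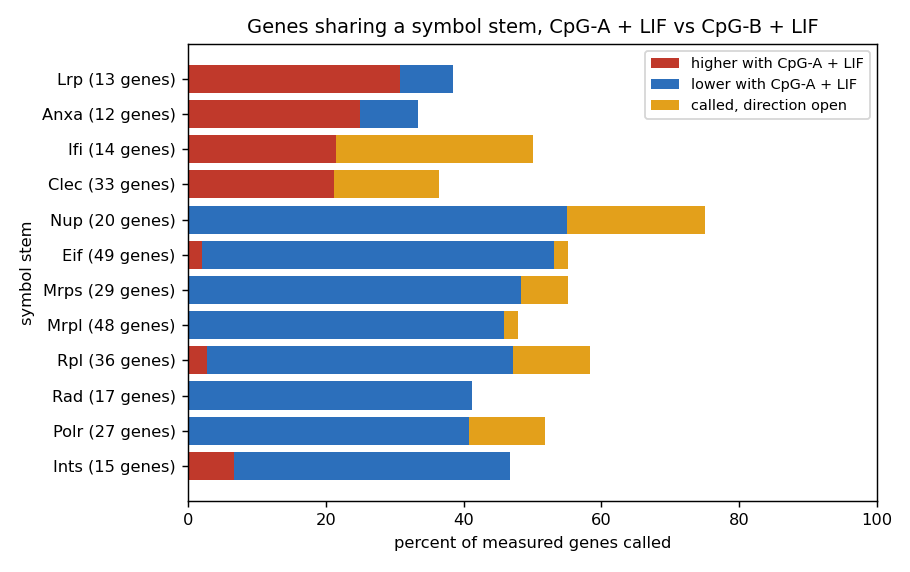
Percent of measured genes called among genes with the same symbol stem, split into higher with CpG-A + LIF, lower with CpG-A + LIF and called with an open direction. Lower genes are 11 of 20 for Nup, 25 of 49 for Eif, 14 of 29 for Mrps and 22 of 48 for Mrpl, and the 4 stems at the top have the highest shares of higher genes.

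The largest readable differences all lie just inside the limit on direction by their construction. Those higher with CpG-A + LIF included Ptprf, a receptor phosphatase, at 1.10 ± 0.14 (adjusted p = 3.54e-05), Plin2, a coat protein of lipid droplets, at 1.10 ± 0.18 (adjusted p = 0.000308), Dll1, a Notch ligand, at 1.08 ± 0.16 (adjusted p = 0.000113) and Il12rb2, a chain of the IL-12 receptor, at 1.08 ± 0.21 (adjusted p = 0.00129). The others were Chdh, Hivep1, Gpr155, Serinc5, Frmd4a and Ms4a6b. When each gene was unfolded at the widest gap between its arrays, Serinc5 took the opposite direction (-2.24, adjusted p = 1.53e-06), and Il12rb2 (adjusted p = 0.157) and Ms4a6b (adjusted p = 0.106) were not called. Readings against LIF alone also gave the second reading of -2.24 for Il12rb2 and Ms4a6b. Those lower with CpG-A + LIF were Nup62, Nup205, Ints2, Urb2, Dph5, Thyn1, Tmem147, Ociad2, Nxpe2 and Abitram, from -1.11 to -1.10. Nup205 is a scaffold of the nuclear pore, Ints2 a subunit of the Integrator complex that processes small nuclear RNAs, and Dph5 an enzyme of diphthamide synthesis on elongation factor 2.

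MicroRNA genes were called in 18 of 288 cases, beside 16.9% of all genes, with 12 higher, 2 lower and 4 open. This is a count of probe sets with a miRNA symbol, and the sources used here do not state whether they report the hairpin or its host transcript. The 2 genes below are shown because both are immune miRNAs with a called difference, and they were chosen after their values were seen. Capitals mark the seed (bases 2 to 8) of the mature sequences, which are RefSeq's on GRCm38.p6. Mir155 lies on the plus strand at chr16:84714143-84714165 (5p) and chr16:84714182-84714202 (3p), and Mir17 on the plus strand at chr14:115043684-115043706 (5p) and chr14:115043721-115043742 (3p).
mmu-miR-155-5p: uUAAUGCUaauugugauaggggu
mmu-miR-155-3p: cUCCUACCuguuagcauuaac
mmu-miR-17-5p: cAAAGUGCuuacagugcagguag
mmu-miR-17-3p: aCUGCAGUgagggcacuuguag

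The 4 seeds differ from each other. Mir155, a miRNA that TLR signals induce in dendritic cells, read -0.36, -1.56 and -0.91 with CpG-A + LIF, against -0.16, 0.11 and 0.05 with CpG-B + LIF. It read lower at -0.95 ± 0.21 (adjusted p = 0.00438), with CpG-A + LIF replicate 1 nearest to the other group. Mir17, of a miRNA cluster known to promote growth, was open at -1.15 ± 0.19 (or 2.17). Its host gene Mir17hg read -0.90, -1.04 and -0.81 in the CpG-A + LIF arrays and 0.48, -0.26 and -0.22 in the CpG-B + LIF arrays. The host read lower at -0.92 ± 0.21 (adjusted p = 0.00549).

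Markers of other cell types that the sort could hold were counted as readings, since levels and their sums cannot be recovered and no marker can be said to be at 0. Conventional dendritic cell markers were called in 2 of 8 cases (1 higher and 1 open). For B cell markers it was 4 of 8 (1 higher and 3 open). T and NK cell markers were called in 1 of 9 (open), erythroid markers in 0 of 4 and plasma cell markers in 1 of 5 (lower). These counts stand beside 16.9% of all genes called. Monocyte and macrophage markers had 8 of 9 nearest readings above 0, beside 58.2% of all genes, and a median of 0.52. Of the 9, 4 were called (44.4%), 2 higher and 2 open. The higher ones were the Fc receptor Fcgr1, itself induced by interferon, at 0.96 ± 0.20 (adjusted p = 0.00183) and Msr1 at 0.82 ± 0.22 (adjusted p = 0.0132). The open ones were Lyz2 at 1.18 ± 0.29 (or -2.14) and Ccr2 at -1.50 ± 0.29 (or 1.83). Neutrophil markers had 9 of 10 readings above 0, beside the same 58.2%, and the same median of 0.52, with 1 called (10%). That was S100a8, which read 0.59, 1.60 and 0.94 with CpG-A + LIF, against -0.72, 0.35 and 0.37 with CpG-B + LIF (1.04 ± 0.34, adjusted p = 0.0422). It was not called without CpG-A + LIF replicate 2 (0.76, adjusted p = 0.189) or 3 (1.09, adjusted p = 0.0783) or CpG-B + LIF replicate 1 (0.68, adjusted p = 0.235). By their nearest readings most monocyte, macrophage and neutrophil markers lay on the same side as the interferon-stimulated genes, and their part in the results was not tested. Fcgr1 and S100a8 were singled out after their values were seen.

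The same oligonucleotides were compared without LIF on other arrays, and most readable differences lay the same way. Without LIF 2560 genes (13%) were called, 873 higher with CpG-A (4.42%), 1212 lower (6.14%) and 475 open (2.4%). The 1914 genes called in both comparisons were 57.3% of those called with LIF and 74.8% of those called without. Of these, 1252 had a readable direction in both, and 1251 had the same one, the exception being Vmn1r174 (-0.45 with LIF, adjusted p = 0.0497, and 0.64 without). Vmn1r174 was not called with LIF when any array other than CpG-B + LIF replicate 2 was left out (adjusted p 0.0605 to 0.252). Their median size was 0.72 with LIF and 0.68 without. Across all 19751 genes the readings with and without LIF had a Pearson r of 0.644, a description over genes, which are not independent and share array processing. Interferon-stimulated genes read higher in 20 cases with LIF and in 21 without. Oxidative phosphorylation genes read lower in 7 cases with LIF and in 2 without, and the difference was not called for any of them.

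The difference between the comparison with LIF and the one without was tested for each gene in limma. It was called for 131 genes (0.663%), 126 of them open in direction (0.638%), 2 with a higher (0.0101%) and 3 with a lower (0.0152%) difference with LIF. An open difference is one where a reading of at least 1 of the 2 comparisons lay past the limit on direction. When the difference was folded once more to its own nearest reading, 0 genes were called, while 1006 had an unadjusted p under 0.05 (1091 before folding again). The smallest adjusted p was then 0.104, for Map2k3os. Stat2 (0.92 with LIF and 0.85 without), Spib (0.94 and 1.01) and Pgam1 (-1.06 and -0.97) had similar values in both, as had Xbp1 (0.72 and 0.81). Cd86 read -0.88 ± 0.21 with LIF and -0.41 ± 0.21 without, and Tlr9 0.32 ± 0.11 with LIF and 0.56 ± 0.11 without. Each was called in 1 of the 2 comparisons only, and for neither was the difference between them called.

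**Figure D4:**
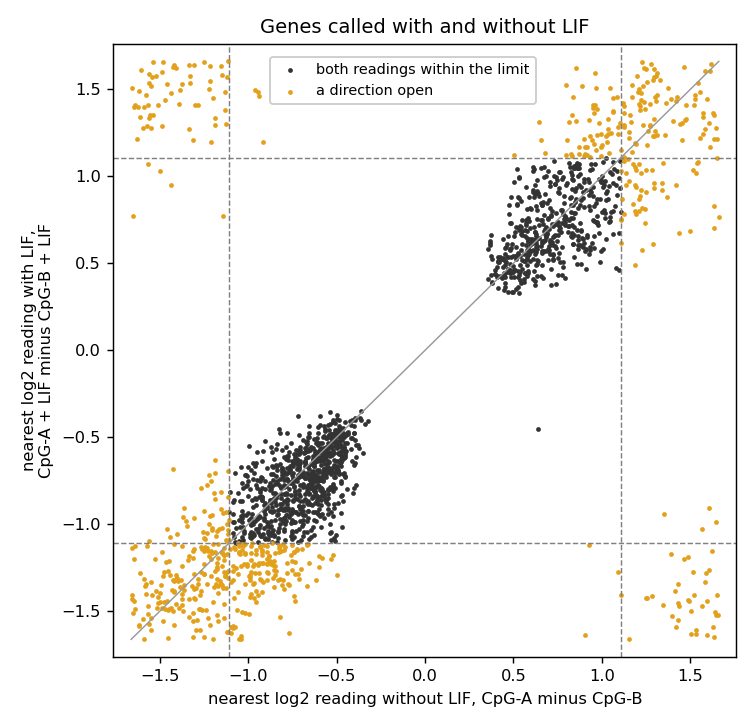
Nearest log2 reading with LIF (vertical axis, CpG-A + LIF minus CpG-B + LIF) against that without LIF (horizontal axis, CpG-A minus CpG-B) for the 1914 genes called in both comparisons, with dashed lines at the limit on direction and a diagonal line of equal readings. Of the 1252 genes within the limit in both (dark points), 1251 lie in the same-sign quadrants, and the points in the opposite corners have an open direction.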

How the data were processed

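Total RNA of each sample was measured on 1 Affymetrix array. The authors deposited linear intensities that, per the submitters' processing notes, came from RMA (version not given in the sources used here), and whose decimal mark is missing in the deposited table. The digits were therefore taken as log2 values modulo 3.32 (the log2 of 10). Arrays were placed nearest to their group's circular mean, and each CpG-A group nearest to its CpG-B group. Of 24680 probe sets, 21354 had 1 gene symbol, 1275 several and 2051 none, which gave 19751 genes; for the 893 genes with several probe sets, the one with the most listed accessions was used.

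Differences were fitted with limma 3.58.1 in R 4.3.3 on all 17 arrays, with 1 coefficient a group and Benjamini-Hochberg adjustment over all 19751 genes, and were called at an adjusted p under 0.05. Named genes were the 10 largest readable differences in each direction with arrays that did not overlap, up to 4 members of each list with the smallest adjusted p, and a fixed set of pathway genes. Members and lists were chosen with earlier results of these data known. No filter on dim probes was possible, and 3 arrays in a group limit the precision. The fit was tested on simulated data. Alternatives covered the unfolding, the choice of probe set, centring, the fit and each left-out array.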

Additional observations from a re-analysis of the deposited data

Results flagged for a closer look

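5 genes had a difference between the comparison with LIF (CpG-A + LIF minus CpG-B + LIF) and the comparison without LIF (CpG-A minus CpG-B) that was called in limma, with both readings within the limit on direction. Proser3 differed by -1.2 ± 0.23 (adjusted p = 0.0095), with readings of -0.97 with LIF and 0.23 without. Il7r, the receptor chain for IL-7, differed by 0.99 ± 0.19 (adjusted p = 0.01), with 0.60 with LIF and -0.40 without. Vmn1r174, a vomeronasal receptor gene, differed by -1.09 ± 0.22 (adjusted p = 0.0141), with -0.45 with LIF and 0.64 without. Thop1, a peptidase, differed by -1.08 ± 0.22 (adjusted p = 0.0229), with -1.07 with LIF and 0.01 without. Igfbpl1 differed by 0.81 ± 0.17 (adjusted p = 0.0239), with 0.35 with LIF and -0.46 without. Once every gene's difference was folded to its own nearest reading, their adjusted p lay between 0.282 and 0.324 and none was called.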

How the results depend on the processing

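Leaving out 1 array at a time gave 2438 to 2986 called genes between CpG-A + LIF and CpG-B + LIF, with 709 to 915 higher and 1135 to 1370 lower. The comparison without LIF then had 1909 to 2279 called genes and the difference between both comparisons 117 to 151. Restricting to the 17314 genes whose arrays all lie within 3.16-fold, which tests fewer genes, gave 1947 called genes with LIF (706 higher), 1292 without LIF and 0 for the difference. The difference was called for 8 genes when unfolded at the widest gap, 67 over the 17776 genes left without the most variable ones and 0 when folded again, an alternative chosen after seeing the data. Members called under the restriction were 7 in the cell cycle, 5 in the E-protein axis, 3 among chemokines, 1 in NF-kB and 0 in co-stimulation, GTPases and interferon genes. Counted with genes of the symbol stems and others outside the naming rule, some chosen after their values were seen, 144 genes were called. Of these, 117 kept their call under all alternatives run, and an open gene that changed sign but stayed called was counted as kept. Of 18 genes not called, 13 stayed so. At the widest gap the readings of Serinc5 (-2.24), Bik (0.24) and Ifi208 (-1.14) changed sign, and of these only Serinc5 was called there. Bik (adjusted p = 0.784 in limma) and Ifi208 (adjusted p = 0.0995) were not. The direction of Ifi208, read as higher in the main fit, is also doubtful by the check against LIF alone. Of 33 open genes 5 changed sign, among them Socs2 (1.06), Ifna4 (-0.59) and Ifna5 (0.73), which were not called there. The cause was not tested. The smallest probe set ID (3323 called), robust moderation (3335), centring (3287) and fitting only the compared groups (3161) stayed within 1.5 times the 3339 called. Recovering the power of 10 from the digits was not run, since the digits showed no rounding grid. With the replicate number as a block 3482 genes were called with LIF, 2676 without and 134 for the difference. Same-numbered arrays of CpG-A + LIF and CpG-B + LIF correlated at 0.0173 to 0.0637 in their deviations. Other-numbered arrays of these groups correlated at -0.0525 to 0.0137, below all same-numbered ones. The number was not taken as a pairing of these groups, which the labels do not settle. Same-numbered arrays of CpG-B + LIF and CpG-B, which both enter the difference, correlated at 0.126, 0.243 and 0.143. Those of CpG-A + LIF and CpG-A, which enter it too, correlated at 0.0751, 0.17 and 0.0146.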

Other observations

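Lists not described above are given here for CpG-A + LIF against CpG-B + LIF, beside 16.9% of all genes called. Cholesterol synthesis had 0 of 19 members called in limma, with 5 at an unadjusted p under 0.05 and a smallest adjusted p of 0.0568, and 1 called without CpG-A + LIF replicate 1. MHC class I presentation had 2 of 16 called (12.5%). Calr, a chaperone of class I assembly, read lower at -0.38 ± 0.12 (adjusted p = 0.0288) and was not called without CpG-A + LIF replicate 2 or 3 or CpG-B + LIF replicate 1 or 2 (-0.37 to -0.35, adjusted p 0.0788 to 0.101). Erap1, which trims peptides for class I, was open at -1.11 ± 0.14 (or 2.21). In the BCL2 family, which governs apoptosis, 3 of 13 were called (23.1%). The survival gene Mcl1 read 0.45 ± 0.12 (adjusted p = 0.0141) and was not called without CpG-A + LIF replicate 1 (0.41, adjusted p = 0.0584) or 3 (0.43, adjusted p = 0.0503). Bcl2, another survival gene, was open at -1.29 ± 0.19 (or 2.03). Bik, a pro-apoptotic member, read -0.87 ± 0.25 (adjusted p = 0.0222) and was not called without CpG-A + LIF replicate 1 or 3 or CpG-B + LIF replicate 1 (-0.82 to -0.58, adjusted p 0.0736 to 0.148). Its direction is doubtful, since readings against LIF alone gave the second reading (2.45).

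Called readings thinned out toward the ambiguous range, with 1807 genes between 0.4 and 0.8, 767 between 0.8 and the limit on direction, 408 between that limit and 1.4, and 238 between 1.4 and 1.66. For 293 called genes, 127 of them with a reading within the limit, the nearest readings of both groups against LIF alone did not add up to the direct reading. At least 1 of the 3 nearest readings of those genes is therefore not the true one.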
